A study of Rattus norvegicus with 18 samples.

Results

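The genes that copy the genome, repair it and hand its methylation on to the daughter strand were followed through rat tongue carcinogenesis in epithelia and in submucosal fibroblasts. A list of 52 DNA replication and repair genes was matched to the array annotation by gene symbol, and 49 of the 52 were measured, of 14217 genes named on the array. Cdc6, Gins2 and Rrm2 have no probe set that names them alone and were not analysed here. The 49 genes have 65 probe sets, and each gene was followed on the probe set with the highest mean log2 signal over all samples. This choice of probe set used no difference between groups, while the list itself was drawn up with earlier results of these data known.

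The samples came from male Sprague Dawley rats, in 6 groups of 3 samples, each sample hybridised to 1 Affymetrix whole-genome rat expression array. Dysplasia and SCC (squamous cell carcinoma) came from rats given 0.002% 4-nitroquinoline-1-oxide (4NQO) in the drinking water for up to 22 weeks and killed between weeks 14 and 22. Normal tissue came from control rats that drank distilled water. For each stage, the tongue epithelium and the fibroblasts beneath it were separated with enzymes and profiled apart, with tissue of 3 rats pooled in a sample as the methods state. The fibroblasts were picked by brief adherence to plastic, so other adherent cells could remain among them. Separate animals for the 3 samples of a group are not stated in the labels, so p-values measure the spread between these samples, which may be technical.

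4NQO is metabolised to a compound that binds bulky adducts to guanine and adenine, lesions that nucleotide excision repair removes. A dividing cell licenses its replication origins in G1, when the origin recognition complex (ORC) with Cdt1 loads the MCM helicase, and fires them in S phase, when Cdc45 and GINS join the helicase. Cyclin E with Cdk2 drives this transition, and E2F transcription factors switch on many of the genes of the machinery, cyclin E among them. Several members serve as proliferation markers in stratified epithelium, where division is normally confined to the lowest layers.

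Because many members are textbook E2F targets, the promoters of 3 of them are shown here: Mcm6 and Mcm3, subunits of the MCM helicase with large changes, and Pole, the catalytic subunit of the leading-strand polymerase, which was called in no comparison between stages. Capitals mark the E2F core, searched on both strands as TTTCCCGC, TTTCGCGC, TTTGCCGC and TTTGGCGC. The sequences are from RefSeq, 300 bases each, from 250 before the annotated start site to 50 after it.
Mcm6 promoter, GRCr8 chr13:42404303-42404602, minus strand: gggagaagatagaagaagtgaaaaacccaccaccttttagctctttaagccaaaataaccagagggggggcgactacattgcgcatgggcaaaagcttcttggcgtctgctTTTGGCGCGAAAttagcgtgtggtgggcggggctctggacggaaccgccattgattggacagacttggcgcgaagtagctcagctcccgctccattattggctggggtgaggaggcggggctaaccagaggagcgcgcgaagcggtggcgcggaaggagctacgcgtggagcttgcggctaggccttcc
Mcm3 promoter, GRCr8 chr9:30733697-30733996, minus strand: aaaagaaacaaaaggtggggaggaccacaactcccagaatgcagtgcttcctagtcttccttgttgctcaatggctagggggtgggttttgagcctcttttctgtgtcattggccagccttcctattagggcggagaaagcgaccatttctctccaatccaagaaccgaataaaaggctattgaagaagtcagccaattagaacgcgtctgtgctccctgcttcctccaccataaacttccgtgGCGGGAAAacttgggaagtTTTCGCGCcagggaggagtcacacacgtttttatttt
Pole promoter, GRCr8 chr12:52053613-52053912, minus strand: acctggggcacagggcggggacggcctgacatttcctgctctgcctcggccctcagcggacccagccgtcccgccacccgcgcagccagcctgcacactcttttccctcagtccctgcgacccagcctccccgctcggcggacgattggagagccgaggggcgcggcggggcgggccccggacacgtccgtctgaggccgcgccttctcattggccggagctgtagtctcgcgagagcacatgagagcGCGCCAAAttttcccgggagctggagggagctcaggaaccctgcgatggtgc
Of the 52 listed genes, 42 had a promoter in the RefSeq table, and 17 of the 42 (40.5%) held an E2F core, against 618 of all 27457 promoters of that length (2.25%). The 17 were Cdt1, Mcm2, Mcm3, Mcm5, Mcm6, Mcm7, Gins1, Pola1, Pole, Rfc3, Rpa2, Lig1, Tyms, Msh6, Chek1, Ung and Dnmt1. In 4 of the 17 promoters E2F core matches overlapped each other, as in the Mcm6 promoter, where a match on each strand makes up 1 run of capitals. The CCAAT box, searched as CCAAT on both strands, was in 26 of the 42 promoters (61.9%) and in 37.7% of all promoters, and 1 of the 26 E2F core matches overlapped one. The core was in 14 of the 30 promoters of members that rose in dysplasia epithelia and in 3 of the 11 of measured members that did not. A match describes these letters in this window and says nothing of binding.

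Before the results, 3 samples need naming. Sample 3 of the normal, the dysplasia and the SCC fibroblasts correlated with its group mates at 0.961 to 0.976 over all probe sets, while samples 1 and 2 of each group correlated at 0.992 to 0.994. Their macrophage markers stood apart too, at a mean log2 signal of 8.85 in sample 3 of the normal fibroblasts against 11.4 and 11.1 in its mates, and at 10.6 against 8.68 and 8.62 in dysplasia. Fibroblast markers averaged 12.4 in sample 3 of the dysplasia fibroblasts, against 11.6 and 11.5 in its mates, and 12.9 in that of the normal fibroblasts, against 12.5 and 12.3. In 3 other lists these samples kept to their groups: neutrophil markers averaged 8.92 in sample 3 of the dysplasia fibroblasts and 8.19 in that of the normal fibroblasts, T cell markers 6.99 and 5.94, and skeletal muscle markers 8.28 and 7.29, each on the side of its own group. Whether samples numbered 3 were exchanged between groups cannot be settled from these values, and the fibroblast values are given by their labels. The counts in fibroblasts, and the changes of the members described, are therefore also given without sample 3 of every stage, which leaves 2 samples a group. This omission was chosen after seeing the data, and it keeps the closest pair of each group. The spread left is small for that reason, so the calls and p-values without sample 3 describe those samples and no more. Epithelial markers, 15 genes with keratins and desmosomal proteins among them, averaged 12.7 to 13.0 in the epithelia and 10.4 to 12.2 in the fibroblast samples, so epithelial signal was high in every fibroblast sample. Sample 3 was the lowest at every stage, at 10.4 against 11.97 and 11.96 in normal fibroblasts. It read 11.6 against 12.12 and 12.11 in dysplasia and 11.3 against 12.2 and 12.1 in SCC fibroblasts. The counts without sample 3 thus rest on the samples with more epithelial signal. Markers of some other cells were higher in the later epithelia, and others were not. T cell markers averaged 6.32 to 6.71 in dysplasia epithelia, against 6.42 to 6.60 in normal epithelia. Skeletal muscle markers averaged 5.08 to 7.09 in SCC epithelia, on both sides of the 5.83 to 5.95 in normal epithelia. Fibroblast markers, 14 genes, averaged 9.53, 11.4 and 7.42 in SCC epithelia, against 6.15, 7.93 and 6.08 in normal epithelia. Macrophage markers, 13 genes, averaged 5.87 to 6.01 in normal, 6.34 to 7.13 in dysplasia and 7.04 to 9.45 in SCC epithelia, and 7 neutrophil markers 5.79 to 6.16, 6.63 to 7.18 and 7.57 to 8.86, so that both lists lay above normal without overlap at either later stage. The part of these other cells in any result was not tested, and in whole samples fewer cells of a type and less RNA per cell cannot be told apart.

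In epithelia, most of the machinery was higher by the dysplasia stage, and no member was called between dysplasia and SCC. At dysplasia 33 of the 49 members rose over normal epithelia and none fell (limma, adjusted p under 0.05), where 14.5% of all probe sets were called in either direction and 7.0% were called higher. The median change of the 49 was 0.81 on the log2 scale, against -0.06 over all probe sets. At SCC 36 members rose over normal epithelia and 1, Xpa, fell, beside 29.9% of all probe sets called and 12.6% called higher, with a median of 0.92 against -0.09. Both comparisons use the same 3 normal samples. Between SCC and dysplasia epithelia no member was called by limma (0.0258% of all probe sets were), 2 of the 49 had an unadjusted p under 0.05, and the differences ran from -0.36 to 0.61 around a median of 0.04.

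**Figure D1:**
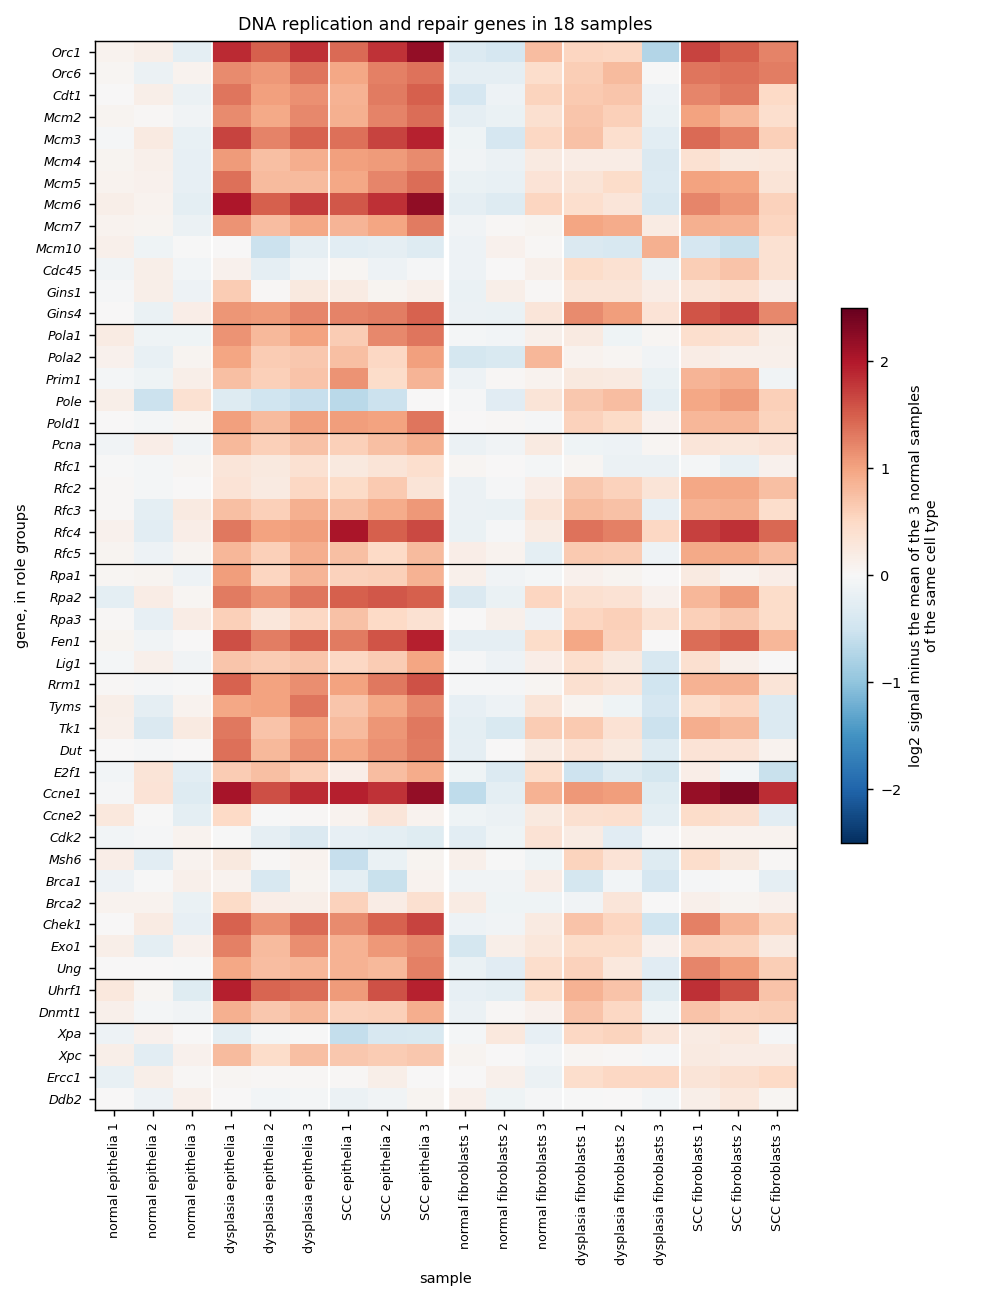
Log2 signal of the 49 measured members in the 18 samples, each as its difference from the mean of the 3 normal samples of the same cell type. Samples are columns, ordered by cell type and stage, and black lines part the role groups. Dysplasia and SCC epithelia are red over most of the replication rows, and sample 3 of the dysplasia fibroblasts is mostly pale or blue.

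Origin licensing and the helicase gave 10 risers of 13 measured members in dysplasia epithelia, and 10 of 13 in SCC epithelia. The median change of the 13 was 1.11 at dysplasia and 1.19 at SCC. Mcm6, on chromosome 13 of GRCr8 (42379161 to 42404352), read 7.05, 6.99 and 6.66 in normal epithelia, 8.92, 8.40 and 8.65 in dysplasia epithelia, and 8.44, 8.72 and 9.11 in SCC epithelia. Every dysplasia and SCC sample lay above every normal one, and the dysplasia and SCC samples overlapped. The change was 1.76 ± 0.20 at dysplasia (SE, n = 3 a group, adjusted p = 0.00259) and 1.86 ± 0.20 at SCC (adjusted p = 0.000482). Mcm3 read 6.68, 6.93 and 6.53 in normal epithelia, 8.40, 7.95 and 8.18 in dysplasia epithelia, and 8.09, 8.40 and 8.64 in SCC epithelia. It was higher by 1.46 ± 0.18 at dysplasia (adjusted p = 0.00302) and by 1.67 ± 0.18 at SCC (adjusted p = 0.000462). Mcm4, the helicase member of highest mean signal, was higher by 0.90 ± 0.13 (adjusted p = 0.00446) and by 1.09 ± 0.13 (adjusted p = 0.000657) in dysplasia and SCC epithelia.

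Orc1, the largest ORC subunit, was dim in normal epithelia at 4.69, 4.74 and 4.35, and read 6.45, 6.09 and 6.42 in dysplasia epithelia and 6.005, 6.39 and 6.79 in SCC epithelia. The groups did not overlap with normal, and the change was 1.73 ± 0.21 (adjusted p = 0.00289) and 1.80 ± 0.21 (adjusted p = 0.000597). Orc1 is 1 of 7 members whose mean log2 signal over all samples was under 7, with Pola2, Tyms, E2f1, Brca1, Exo1 and Ddb2. Orc6, another ORC subunit, was higher by 1.20 ± 0.13 and by 1.19 ± 0.13 at dysplasia and SCC, and Gins4, a GINS subunit, by 1.13 ± 0.12 and 1.33 ± 0.12. The 3 members of this group not called were Mcm10 (-0.25 and -0.27), Cdc45 (-0.07 and -0.03) and Gins1 (0.30 and 0.14). They act after loading, when the helicase is switched on, as does Gins4, which rose. Cdc45 has 3 further probe sets, of which 1 was called at SCC (0.50 ± 0.13, adjusted p = 0.0191).

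At the fork itself, 4 of 5 polymerase and primase members rose at both stages, among them Pola1 and Pola2 of the priming polymerase and Pold1 of the lagging-strand polymerase. Prim1, the primase subunit, read 8.72, 8.67 and 8.91 in normal epithelia, 9.52, 9.36 and 9.48 in dysplasia epithelia, and 9.89, 9.22 and 9.63 in SCC epithelia. Its change at dysplasia, 0.69 ± 0.17, was called at an adjusted p of 0.0280 and lost the call without any 1 of the 6 dysplasia and normal samples (highest adjusted p = 0.0971). Pole was the exception of the group, at 8.11, 7.42 and 8.35 in normal epithelia, 7.64, 7.46 and 7.38 in dysplasia epithelia, and 7.28, 7.43 and 7.97 in SCC epithelia. These groups overlapped, and the differences of -0.47 ± 0.25 and -0.40 ± 0.25 were not called.

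Pcna, the sliding clamp, read 11.1, 11.4 and 11.1 in normal epithelia, 12.0, 11.8 and 11.9 in dysplasia epithelia, and 11.8, 11.9 and 12.1 in SCC epithelia. The change was 0.72 ± 0.12 (adjusted p = 0.00834) and 0.75 ± 0.12 (adjusted p = 0.00294), without overlap. Of the clamp loader, Rfc3, Rfc4 and Rfc5 rose at dysplasia, and all 5 measured subunits rose at SCC. Rfc4 read 8.08, 7.71 and 8.15 in normal epithelia, 9.29, 8.98 and 9.03 in dysplasia epithelia, and 10.0, 9.47 and 9.63 in SCC epithelia. It had the largest difference of the 49 members between SCC and dysplasia epithelia, 0.61 (95% interval 0.20 to 1.02) with no overlap of the samples, and an adjusted p of 0.217. Rfc1 and Rfc2, at 0.33 and 0.48, had the smallest called increases at SCC, and both lost the call when some single samples were left out. The other probe sets of Rfc1 disagree. The brighter was called higher at dysplasia and SCC (0.53 ± 0.15 and 0.67 ± 0.15), and the dimmer at neither (-0.04 ± 0.16 and -0.16 ± 0.16).

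Single-strand binding and Okazaki fragment joining had 4 risers of 5 at dysplasia and 5 of 5 at SCC. Lig1 was among them at both stages on the probe set followed, while its other probe set was not called (0.10 ± 0.11 and 0.11 ± 0.11). Fen1, the flap endonuclease that trims Okazaki fragments, read 7.09, 6.93 and 7.03 in normal epithelia, 8.63, 8.30 and 8.51 in dysplasia epithelia, and 8.32, 8.59 and 8.96 in SCC epithelia, a change of 1.46 ± 0.17 (adjusted p = 0.00244) and 1.61 ± 0.17 (adjusted p = 0.000400). Of the RPA subunits, which coat single-stranded DNA, Rpa2 moved most, by 1.26 at dysplasia and 1.51 at SCC. Rpa3 read 9.56, 9.34 and 9.72 in normal epithelia, 10.1, 9.83 and 10.1 in dysplasia epithelia, and 10.3, 10.0 and 9.91 in SCC epithelia. Its difference was 0.47 ± 0.15 at dysplasia (adjusted p = 0.0639) and 0.54 ± 0.15 at SCC (adjusted p = 0.0242), and the call at SCC was lost in 3 of the single-sample exclusions.

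All 4 measured enzymes of nucleotide supply rose at both stages, by 1.02 to 1.21 at dysplasia and 0.94 to 1.30 at SCC. Dut, which hydrolyses dUTP and keeps uracil out of DNA, read 9.50, 9.46 and 9.51 in normal epithelia, 10.9, 10.3 and 10.6 in dysplasia epithelia, and 10.5, 10.6 and 10.8 in SCC epithelia. Its change was 1.11 ± 0.15 (adjusted p = 0.00414) and 1.13 ± 0.15 (adjusted p = 0.00120). Tyms, thymidylate synthase, was higher by 1.11 ± 0.17 and 0.94 ± 0.17, next to Rrm1, the large subunit of ribonucleotide reductase, and Tk1, thymidine kinase. Ung, which cuts out uracil that does get in, was higher by 0.85 ± 0.14 and 0.98 ± 0.14.

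Ccne1, the cyclin E1 gene on chromosome 1 of GRCr8 (99918672 to 99927986), had the largest change of the 49 in both comparisons with normal epithelia. It read 6.97, 7.34 and 6.68 in normal epithelia, 9.06, 8.60 and 8.86 in dysplasia epithelia, and 8.94, 8.80 and 9.19 in SCC epithelia. The change was 1.84 ± 0.19 (adjusted p = 0.00205) and 1.98 ± 0.19 (adjusted p = 0.000315). Its paralogue Ccne2 read 9.02, 8.75 and 8.51 in normal epithelia, 9.25, 8.76 and 8.78 in dysplasia epithelia, and 8.84, 9.05 and 8.86 in SCC epithelia, with overlap and differences of 0.17 ± 0.17 and 0.16 ± 0.17 that were not called. E2f1 differed by 0.66 (adjusted p = 0.0683) and 0.62 (adjusted p = 0.0544). Cdk2 differed by -0.20 and -0.25 on the probe set followed, neither called, while its other, dimmer probe set was called higher at both stages (0.93 ± 0.17 and 0.87 ± 0.17), so the 2 probe sets of this gene disagree.

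**Figure D2:**
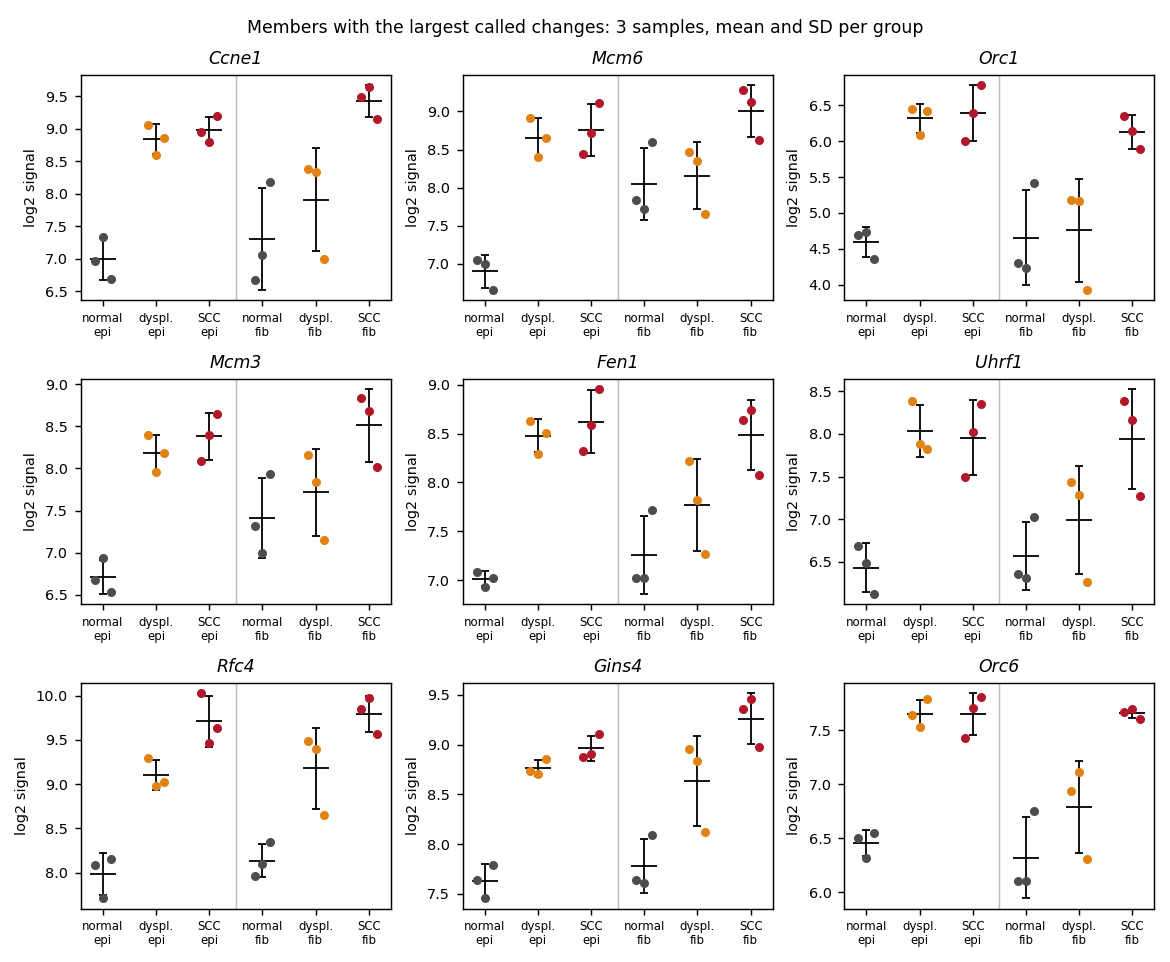
Log2 signal of 9 members with the largest called changes in the 6 groups, epithelia left of the grey line and fibroblasts right of it. Points are the 3 samples in the order 1 to 3, and bars give the mean and SD. In epithelia no dysplasia or SCC point reaches down to a normal one, while in fibroblasts sample 3 is the highest normal point and the lowest dysplasia point of each gene drawn.

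Uhrf1, which recognises hemimethylated DNA behind the fork, read 6.69, 6.48 and 6.12 in normal epithelia, 8.39, 7.89 and 7.83 in dysplasia epithelia, and 7.49, 8.02 and 8.36 in SCC epithelia. It was higher by 1.60 ± 0.25 (adjusted p = 0.00596) and 1.52 ± 0.25 (adjusted p = 0.00275). Dnmt1, the maintenance methyltransferase it brings in, was higher by 0.79 ± 0.13 (adjusted p = 0.00677) and 0.69 ± 0.13 (adjusted p = 0.00474). Among the members that check and repair replicating DNA, Chek1, the checkpoint kinase (1.35 and 1.45), and Exo1, a mismatch repair exonuclease (1.07 and 1.05), rose with Ung. Brca1 (-0.08 and -0.24), Brca2 (0.26 and 0.38), of homologous recombination, and Msh6, of mismatch repair, were not called. Msh6 read 9.88, 9.46 and 9.81 in normal epithelia, 9.97, 9.76 and 9.81 in dysplasia epithelia, and 9.14, 9.55 and 9.79 in SCC epithelia, with overlap throughout.

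Nucleotide excision repair, the pathway for the adducts of 4NQO, has 4 members on the list. Xpc rose at dysplasia, and at SCC Xpc rose and Xpa fell, which makes 1 and 2 calls of 4 where 14.5% and 29.9% of all probe sets were called. Xpc, which finds the distorted helix, read 7.37, 6.97 and 7.34 in normal epithelia, 8.02, 7.69 and 7.98 in dysplasia epithelia, and 7.90, 7.86 and 7.90 in SCC epithelia. Its change was 0.67 ± 0.14 (adjusted p = 0.0171) and 0.66 ± 0.14 (adjusted p = 0.00870), and the call at dysplasia was lost without dysplasia sample 3 (adjusted p = 0.0743).

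Xpa, which verifies the lesion, read 8.57, 8.79 and 8.70 in normal epithelia, 8.45, 8.64 and 8.68 in dysplasia epithelia, and 8.09, 8.28 and 8.31 in SCC epithelia. All 3 SCC samples lay below all other epithelia. The change at SCC, -0.46 ± 0.12 (adjusted p = 0.0177), was lost without normal sample 2 or 3 (highest adjusted p = 0.0576) and when the arrays were aligned on spike-in controls (-0.40, adjusted p = 0.118). Between SCC and dysplasia it was -0.36 (95% interval -0.63 to -0.10, adjusted p = 0.240). Ercc1, a subunit of the nuclease that cuts 5′ of the lesion, differed by 0.04 ± 0.11 and 0.07 ± 0.11, and Ddb2, the damage sensor that helps Xpc at ultraviolet lesions, by -0.04 ± 0.11 and -0.06 ± 0.11. Their 95% intervals lay within -0.31 and 0.32 in all 4 cases.

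**Figure D3:**
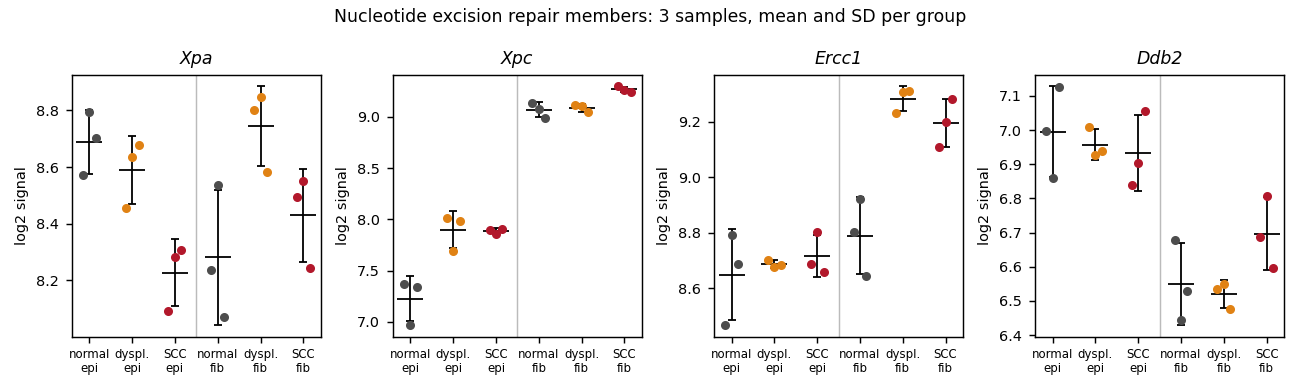
Log2 signal of the 4 nucleotide excision repair members in the 6 groups, with the 3 samples of each group as points and bars for the mean and SD. The axes differ in range. Xpc is higher in dysplasia and SCC epithelia than in normal epithelia, Xpa is lowest in SCC epithelia, and Ercc1 and Ddb2 overlap between the stages in epithelia.

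Of the 33 calls at dysplasia, 25 held without any single sample. The 8 that did not were Pola1, Pola2, Prim1, Rfc3, Rpa1, Lig1, Tk1 and Xpc. Of the 37 calls at SCC, 33 held, and the 4 others were Rfc1, Rfc2, Rpa3 and Xpa. Of 16 further probe sets of 11 members, 10 gave the same call as the probe set followed in each of these comparisons. Those that did not were of Cdk2, Rfc1, Dut, Lig1, Orc6 and Tk1 at dysplasia. At SCC they were of Cdk2, Cdc45, Rfc1, Lig1, Orc6 and Tk1.

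In fibroblasts, members were called over normal at SCC and none was called at dysplasia. Over normal fibroblasts, 13 of 49 members rose in SCC fibroblasts and none fell, beside 15.2% of all probe sets called and 7.82% called higher, with a median change of 0.57 against -0.05 for all probe sets. The 13 were Orc1, Orc6, Mcm7, Gins4, Pold1, Rfc2, Rfc4, Rfc5, Rpa3, Fen1, Ccne1, Ung and Uhrf1, all of them also among the 36 that rose in SCC epithelia, of which they are 36.1%. Of the 16 further probe sets 14 gave the same call as the probe set followed. The 2 others, both of Cdc45, were called higher (1.20 ± 0.33 and 0.86 ± 0.19), though Cdc45 is not among the 13. In dysplasia fibroblasts 0 members were called over normal by limma (0.171% of all probe sets were), with 8 at an unadjusted p under 0.05 and a median of 0.20. Between SCC and dysplasia fibroblasts none was called either (1.85% of all probe sets), though 46 of 49 differences were above 0, 16 had an unadjusted p under 0.05, and the median was 0.30. Same-numbered samples of these 2 groups deviated together over all probe sets. So did SCC sample 1 with dysplasia sample 2, and SCC sample 2 with dysplasia sample 1. The numbers thus set sample 3 apart and do not show a pairing of samples 1 and 2. With the replicate number as a block in a limma fit of these 6 arrays alone, added after seeing the data, 11 members rose and none fell (8.16% of all probe sets called, 5.3% higher): Orc1, Orc6, Cdt1, Mcm3, Mcm5, Mcm6, Fen1, Rrm1, Ccne1, Ung and Uhrf1. In that fit Uhrf1 was higher by 0.96, 0.88 and 1.02 between the samples numbered 1, 2 and 3 (adjusted p = 0.0131). Mcm6 was higher by 0.81, 0.77 and 0.97 (adjusted p = 0.0179). The same block in the fit of all 9 fibroblast arrays called 0.

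These counts turn on sample 3, which was left out only after the data were seen. Without it in every stage, 29 members rose in dysplasia fibroblasts (26.5% of all probe sets called, 12.5% higher), 35 rose and Mcm10 fell in SCC fibroblasts (42.3% called, 20.1% higher), and 17 rose between SCC and dysplasia fibroblasts (16.2% called, 8.81% higher). The medians were then 0.51, 0.72 and 0.29. The mean of the 49 members in the 3 samples of each group was 7.93, 7.96 and 8.29 in normal fibroblasts, 8.50, 8.43 and 7.96 in dysplasia fibroblasts, and 8.80, 8.76 and 8.45 in SCC fibroblasts. Sample 3 was thus the highest of the normal and the lowest of the dysplasia and SCC fibroblasts. Sample 3 of the dysplasia fibroblasts, at 7.96, lay at the level of normal samples 1 and 2. With single samples left out, the 13 calls at SCC became 3 to 23: 3 without SCC sample 1 or 2, 4 without normal sample 1 or 2, 10 and 9 without dysplasia sample 1 and 2, 16 without normal sample 3, 21 without SCC sample 3, and 23 without dysplasia sample 3. Aligned on spike-in controls, the median of all probe sets became 0.56 at SCC over normal and 0.71 at SCC over dysplasia in fibroblasts, with 32 and 33 members called higher and 97.9% and 99.9% of all calls higher, against 51.3% and 82.5% as deposited. This alignment moves every probe set of an array alike, so the members' median stays 0.62 and 0.31 above that of all probe sets by construction. The share of all probe sets called under it is not given here, so the 32 and 33 have no background beside them.

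**Figure D4:**
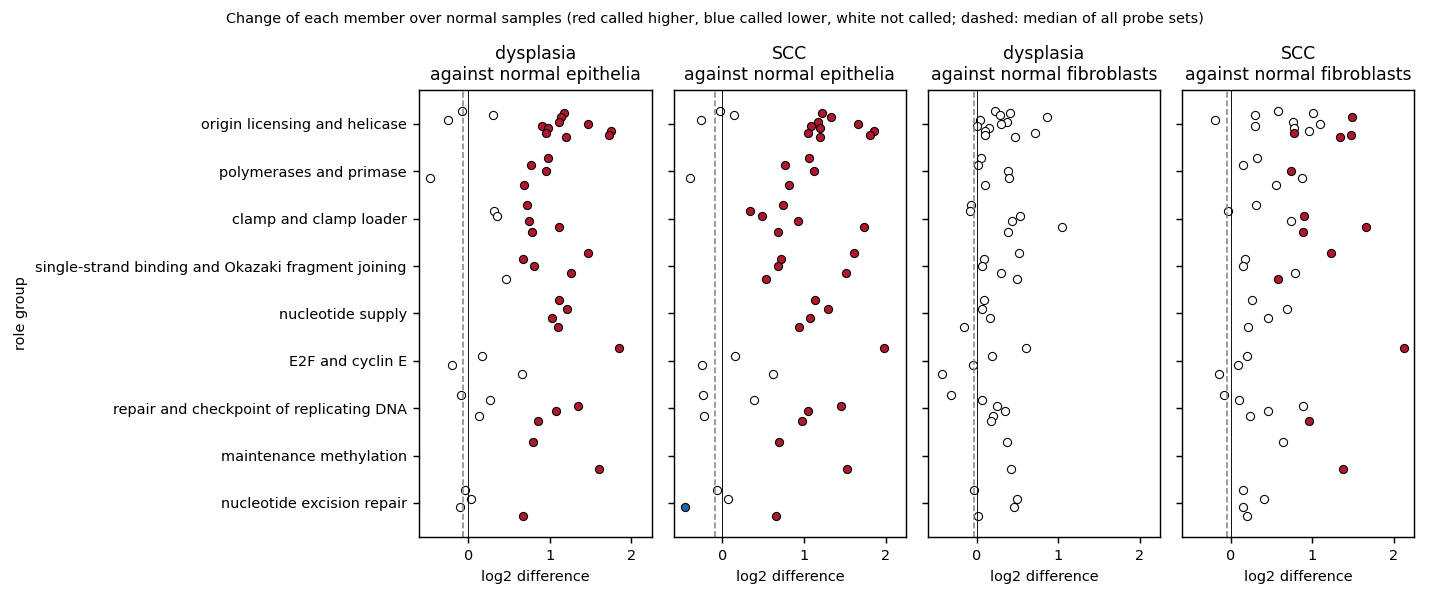
Log2 difference of each measured member over normal samples of the same cell type, by role group, in dysplasia and SCC epithelia and in dysplasia and SCC fibroblasts. Filled points were called at an adjusted p under 0.05 and the dashed line is the median of all probe sets. Epithelia hold 33 and 37 filled points, dysplasia fibroblasts none and SCC fibroblasts 13.

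Ccne1 again had the largest change. It read 6.67, 7.06 and 8.18 in normal fibroblasts, 8.38, 8.34 and 6.997 in dysplasia fibroblasts, and 9.48, 9.64 and 9.15 in SCC fibroblasts. The SCC samples lay above all 6 others, by 2.12 ± 0.45 over normal (adjusted p = 0.0190), a call lost without sample 1 or 2 of the normal or SCC fibroblasts (highest adjusted p = 0.0782). Its difference at dysplasia was 0.60 ± 0.45 (adjusted p = 0.487). Without sample 3 of each stage it was 1.50 ± 0.15 at dysplasia (adjusted p = 0.00253) and 2.69 ± 0.15 at SCC (adjusted p = 0.000232).

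Rfc4, Gins4 and Rfc2 were the 3 members whose call at SCC held without any single sample. Rfc4 read 7.97, 8.10 and 8.34 in normal fibroblasts, 9.49, 9.40 and 8.65 in dysplasia fibroblasts, and 9.85, 9.97 and 9.57 in SCC fibroblasts. The 3 stages did not overlap, with 1.66 ± 0.23 at SCC (adjusted p = 0.00462) and 1.04 ± 0.23 at dysplasia (adjusted p = 0.115). Gins4 read 7.64, 7.61 and 8.09 in normal fibroblasts, 8.96, 8.83 and 8.12 in dysplasia fibroblasts, and 9.36, 9.45 and 8.97 in SCC fibroblasts. It was higher by 1.48 ± 0.25 at SCC (adjusted p = 0.00885), and Rfc2 by 0.90 ± 0.15 (adjusted p = 0.00802). Without sample 3 of each stage all 3 were also called at dysplasia, Rfc4 at 1.41 ± 0.11 (adjusted p = 0.00136), Gins4 at 1.27 ± 0.10 and Rfc2 at 0.71 ± 0.10, and at SCC they stood at 1.88, 1.78 and 1.05.

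Orc1 read 4.30, 4.24 and 5.42 in normal fibroblasts, 5.18, 5.17 and 3.93 in dysplasia fibroblasts, and 6.35, 6.15 and 5.89 in SCC fibroblasts, a rise of 1.48 ± 0.40 at SCC (adjusted p = 0.0402). Uhrf1 read 6.36, 6.31 and 7.02 in normal fibroblasts, 7.43, 7.28 and 6.26 in dysplasia fibroblasts, and 8.39, 8.16 and 7.28 in SCC fibroblasts, a rise of 1.37 ± 0.38 (adjusted p = 0.0425). Both calls were lost without sample 1 or 2 of any stage (highest adjusted p = 0.134 for Orc1 and 0.148 for Uhrf1). Orc6 read 6.10, 6.11 and 6.75 in normal fibroblasts, 6.94, 7.12 and 6.31 in dysplasia fibroblasts, and 7.67, 7.69 and 7.61 in SCC fibroblasts, a rise of 1.34 ± 0.24 (adjusted p = 0.0118) that was lost without SCC sample 1 or 2 (highest adjusted p = 0.0527). Fen1 rose by 1.23 ± 0.29 (adjusted p = 0.0276). Without sample 3 of each stage, Orc1, Uhrf1, Orc6 and Fen1 rose by 1.98, 1.94, 1.58 and 1.67 at SCC, and all 4 were called at dysplasia too, by 0.90, 1.02, 0.93 and 0.99 (highest adjusted p = 0.00695).

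With all samples, none of the nucleotide supply and excision repair members was called in fibroblasts. Without sample 3 of each stage all 4 nucleotide supply members rose at SCC, Tk1 by 1.17 ± 0.14, Rrm1 by 0.89 ± 0.10, Tyms by 0.65 ± 0.11 and Dut by 0.45 ± 0.12 (highest adjusted p = 0.0279). At dysplasia Tk1 (0.83 ± 0.14, adjusted p = 0.00876) and Rrm1 (0.38 ± 0.10, adjusted p = 0.0358) were then called. Ercc1 read 8.80, 8.92 and 8.64 in normal fibroblasts, 9.23, 9.31 and 9.31 in dysplasia fibroblasts, and 9.11, 9.20 and 9.28 in SCC fibroblasts, so that both later stages lay above normal without overlap. Its difference was 0.49 ± 0.12 at dysplasia (adjusted p = 0.133) and 0.41 ± 0.12 at SCC (adjusted p = 0.0552), and without sample 3 of each stage 0.41 ± 0.11 at dysplasia, which was called (adjusted p = 0.0362), and 0.29 ± 0.11 at SCC (adjusted p = 0.0695). Xpa differed by 0.46 ± 0.16 at dysplasia (adjusted p = 0.203), and by 0.44 ± 0.13 without those samples (adjusted p = 0.0521). Xpc differed by 0.02 ± 0.11 and 0.20 ± 0.11 and Ddb2 by -0.03 ± 0.12 and 0.15 ± 0.12 at dysplasia and SCC, none of them called with or without those samples.

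The change from normal was then compared between the cell types, as the change in epithelia minus the change in fibroblasts, in 1 fit of all 18 arrays. At dysplasia 8 members differed, all with the larger increase in epithelia, beside 4.13% of all probe sets (1.93% with the larger increase in epithelia). Mcm6 led with 1.65 ± 0.38 (adjusted p = 0.0279). It read 8.47, 8.35 and 7.65 in dysplasia fibroblasts, against 7.83, 7.72 and 8.59 in normal fibroblasts. Tyms followed with 1.26 ± 0.32 (adjusted p = 0.0401), and then Dut with 1.01 ± 0.26, Pola1 with 0.92 ± 0.24, Mcm4 with 0.90 ± 0.22, Pcna with 0.78 ± 0.17, Rpa1 with 0.75 ± 0.19 and Xpc with 0.65 ± 0.17. Dut read 11.1, 10.98 and 10.4 in dysplasia fibroblasts, against 10.5, 10.8 and 10.96 in normal fibroblasts. Pcna read 12.5, 12.5 and 12.6 in dysplasia fibroblasts, against 12.5, 12.5 and 12.8 in normal fibroblasts.

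At SCC 5 members differed (16.5% of all probe sets did). Dut (0.87 ± 0.26), Mcm4 (0.79 ± 0.22) and Pola1 (0.75 ± 0.24) had the larger increase in epithelia. Pole went the other way, by -1.27 ± 0.40 (adjusted p = 0.0420), with 7.42, 7.52 and 7.06 in SCC fibroblasts, against 6.42, 6.18 and 6.77 in normal fibroblasts. Xpa differed by -0.61 ± 0.19 (adjusted p = 0.0444), with 8.50, 8.55 and 8.24 in SCC fibroblasts, against 8.24, 8.54 and 8.07 in normal fibroblasts. These are calls on the probe sets followed. A further probe set of Orc6 (-0.82 ± 0.21) and one of Cdc45 (-0.67 ± 0.22) were called with the larger increase in fibroblasts. A further probe set of Dut was called with the larger increase in epithelia (1.23 ± 0.34). Between SCC and dysplasia no difference of changes was called by limma (0.651% of all probe sets). Each of the 13 calls was lost in at least 2 of the single-sample exclusions, and when the arrays were aligned on spike-in controls no member had a called larger increase in epithelia at either stage. Without sample 3 of every fibroblast group 10 of the 13 were still called and Dut and Pola1 at dysplasia and Pola1 at SCC were not. Rrm1 and Pole were then called in addition at dysplasia (11.9% of all probe sets called), Pole at -1.35 ± 0.35, and Rfc1, Rfc2 and Cdc45 at SCC (27.7%).

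Within a stage, limma called 6 members higher and 19 lower in normal epithelia than in normal fibroblasts (63.4% of all probe sets called), 13 higher and 5 lower at dysplasia (50.4%), and 1 higher and 6 lower at SCC (38.3%). Aligned on the spike-in controls, which moved the median of all probe sets by up to 1.12, these counts were 20 and 1, 46 and 0, and 1 and 1, so that no direction between the cell types is given. The share of all probe sets called under the alignment is not given.

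The lists around the members were read in the same way. Of 22 other replication genes, 11 rose and none fell at dysplasia in epithelia, with Timeless (1.43 ± 0.19) and Clspn (1.10 ± 0.15) of the fork protection and checkpoint machinery and Topbp1 (1.19 ± 0.16), which helps fire origins, leading, and 12 rose at SCC while Chaf1a, a histone chaperone subunit, fell (-0.57 ± 0.12). In SCC fibroblasts 5 of the 22 rose, first Gmnn (1.27 ± 0.25), the inhibitor of Cdt1, and 14 did without sample 3 of each stage. Of 13 other excision repair genes, the TFIIH subunits Ercc3 (0.57 ± 0.13), Gtf2h3 and Gtf2h1 rose at dysplasia in epithelia. At SCC 2 rose, and none fell at either stage, where 7.0% and 12.6% of all probe sets were called higher. In SCC fibroblasts Gtf2h3 rose (0.99 ± 0.23, adjusted p = 0.0238), and without sample 3 of each stage 4 rose and Ercc5 fell. Of all probe sets 7.82% were called higher there, and 20.1% without sample 3, which stands beside the SCC fibroblast counts of every list here. Of 20 other repair genes 7 rose at dysplasia, Blm (1.32) and Atr (1.26) the most, and 10 rose and Pms2 fell at SCC, against 1 in SCC fibroblasts, Apex1 (1.33 ± 0.25), where 8 rose and Rev3l fell without sample 3.

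Of 15 other E2F and RB genes 6 rose at dysplasia in epithelia, with the atypical repressors E2f8 (1.58) and E2f7 (1.46) first, and 7 rose and Rb1 fell (-0.46) at SCC. In SCC fibroblasts E2f8 (1.27 ± 0.35), E2f7 (0.89 ± 0.22) and E2f4 (0.73 ± 0.18) rose and Tfdp2, a dimerisation partner of E2F proteins, fell (-0.82 ± 0.20, adjusted p = 0.0308), and without sample 3 of each stage 8 rose and 3 fell. Mitosis genes moved beside the members: 15 of 20 rose at dysplasia and 16 of 20 at SCC in epithelia, and 4 in SCC fibroblasts, Aurka (1.85 ± 0.22) the most, or 14 without sample 3. In no list was a gene called between SCC and dysplasia epithelia.

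**Figure D5:**
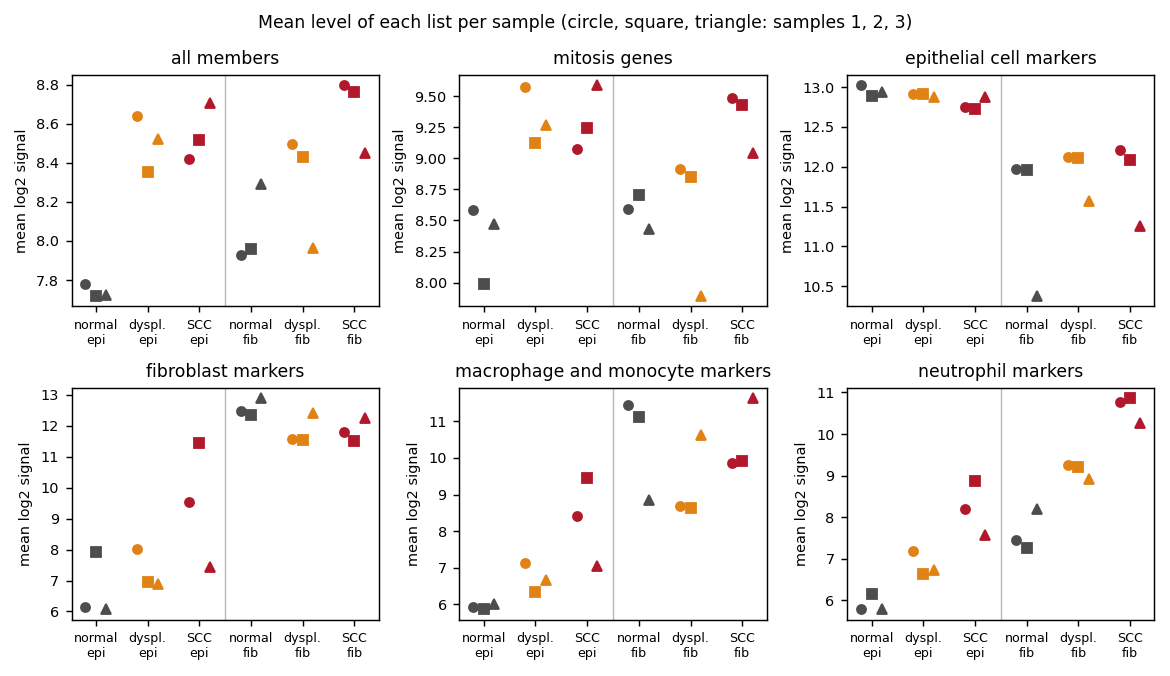
Mean log2 signal per sample of the 49 members, 20 mitosis genes and 4 marker lists in the 6 groups, with circles, squares and triangles for samples 1, 2 and 3. The members sit at 7.72 to 7.78 in normal epithelia and at 8.35 to 8.71 in dysplasia and SCC epithelia. In fibroblasts the triangles lie apart in most lists, and neutrophil markers are highest at SCC in both cell types.

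In fibroblasts other cells moved with stage as well. All 7 neutrophil markers rose in SCC fibroblasts over normal, with list means of 10.8, 10.9 and 10.3, against 7.45, 7.26 and 8.19. Of 13 macrophage markers none was called there, and of 15 epithelial markers 1 fell. Without sample 3 of each stage 10 macrophage markers fell and Fcgr2b rose at SCC, and all 13 fell at dysplasia. Of 14 fibroblast markers, 13 then fell at dysplasia and 11 at SCC, and none rose. Epithelial markers had 3 called higher and 1 lower at each of these stages. T cell markers had 6 of 8 called higher at dysplasia and 5 at SCC. Of 8 skeletal muscle markers 6 rose at dysplasia and 2 fell at SCC. Of all probe sets 26.5% and 42.3% were called at dysplasia and SCC. Whether the rise of the members in SCC fibroblasts, or in dysplasia fibroblasts without sample 3, came with these cells was not tested.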

How the data were processed

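The 18 arrays measured RNA of normal, dysplastic and SCC tongue, epithelia apart from submucosal fibroblasts. The deposited values are probe set intensity values that the authors summarised and normalised before deposition. RMA and Affymetrix Expression Console are named in the submitters' processing notes, without versions. They ran from 1 to 21626, beyond the range of log2 signals, so they were read as linear and log2 was taken. RMA gives log2 values, and the step that made linear values with a floor of 1 from them is not stated. RMA equalises the distributions of arrays, so a change shared by most genes may not show. The deposited arrays were not fully alike, with median log2 values of 6.53 to 6.77 in epithelia and 6.79 to 6.86 in fibroblasts.

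After removal of 57 controls from 31099 probe sets, 31042 were tested. A single gene is named by 20826 of them, several genes by 436 and no gene by 9780. No value column was left out. Each cell type was fitted over its 9 arrays and 3 stages with limma 3.58.1 in R 4.3.3, and cell types were compared in a fit of all 18. Benjamini-Hochberg adjustment ran over every tested probe set, and a member was called at an adjusted p under 0.05. Errors beside changes are standard errors of the fit. Dim probe sets were kept, since no detection call is given. The fit was tested on simulated data. The number of arrays limits the precision.

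Members and lists were chosen with earlier results of these data known. Members were given with the value of every sample by rule: up to 6 members with the largest called changes per comparison, the 4 excision repair members, the member of highest mean signal in each role, up to 6 members whose change differed between cell types, and any called against the majority. Other genes were named from fixed lists where called, up to 4 per list. Cdk2, Cdc45 and Rfc2, and members given by changes alone, were added after their values were seen.

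Same-numbered samples of SCC and dysplasia fibroblasts deviated together over all probe sets (r = 0.321 to 0.592), while the other pairs of groups did not all do so. SCC sample 1 with dysplasia sample 2 (r = 0.326) and SCC sample 2 with dysplasia sample 1 (r = 0.352) deviated together as well. Samples 1 and 2 are therefore not shown to be paired by number. Alternatives tried were quantile normalisation, leaving out dim probe sets, alignment on 18 spike-in probe sets, the replicate number as a block, an intensity trend with robust estimates, 1 fit of all samples, the methods' t-test, a fold of 2 with an unadjusted p, other probe sets, and each sample left out. Leaving out sample 3 of every fibroblast group, and a block in a fit of the SCC and dysplasia fibroblasts alone, were chosen after seeing the data.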

Additional observations from a re-analysis of the deposited data

Results flagged for a closer look

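The change from normal differed between epithelia and fibroblasts for 13 results, by a limma test of the difference itself, given as the change in epithelia minus that in fibroblasts on the log2 scale. At dysplasia these were Mcm6 (1.65), Tyms (1.26), Dut (1.01), Pola1 (0.92), Mcm4 (0.90), Pcna (0.78), Rpa1 (0.75) and Xpc (0.65), with adjusted p-values of 0.0231 to 0.0424. Of all probe sets 4.13% were called there. At SCC they were Dut (0.87), Mcm4 (0.79), Pola1 (0.75), Pole (-1.27) and Xpa (-0.61), with adjusted p-values of 0.0234 to 0.0454. Of all probe sets 16.5% were called there, a larger share than of the 49 members. Every one of the 13 lost its call in 2 or more of the 18 fits that left out a single sample. Sample 3 of each fibroblast group, with its other level of members and markers, enters all of them. Without it in every stage 10 of the 13 were still called. Of all probe sets 11.9% were then called at dysplasia and 27.7% at SCC. The median difference of the 49 members was then 0.27 at dysplasia and -0.04 at SCC, against 0.65 and 0.28 with all samples.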

How the results depend on the processing

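The counts of members in epithelia moved least. At dysplasia against normal 33 members were called higher, and 25 to 34 with single samples left out. At SCC the 36 became 33 to 36, and the 1 lower became 0 to 1. A fold of 2 with an unadjusted p gave 18 at dysplasia, and 22 higher and 0 lower at SCC. The methods' t-test gave 0 lower at SCC after Benjamini-Hochberg adjustment and 3 at an unadjusted p, and 2 higher and 1 lower at SCC against dysplasia, unadjusted. Spike-in alignment gave 0 lower at SCC.

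In fibroblasts the 0 at dysplasia became 1 with the replicate block, 4 in 1 fit of all 18 samples, 1 by a fold of 2, 7 by the unadjusted t-test, 29 without sample 3 of every stage, and 0 to 3 with single samples left out. The 13 at SCC became 32 with spike-in alignment, 26 in 1 fit of all samples, 3 by the adjusted and 25 by the unadjusted t-test, 35 higher and 1 lower without sample 3 of every stage, and 3 to 23 with single samples left out. The 0 at SCC against dysplasia became 33 with spike-in alignment, 3 in 1 fit of all samples, 2 by a fold of 2, 6 by the unadjusted t-test, 17 without sample 3 of every stage and 11 with the replicate block in a fit of these 2 groups alone.

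For the difference of changes, the 8 at dysplasia became 4 with quantile normalisation, 0 with spike-in alignment, 5 with the replicate block and 0 to 9 with single samples left out, and 1 lower appeared without sample 3 of every fibroblast group. At SCC the 3 higher became 5 with the dim filter, 0 with spike-in alignment and 0 to 4 with single samples left out, and the 2 lower became 1 with quantile normalisation, 4 with spike-in alignment, 1 with the replicate block, 4 without the 3 fibroblast samples and 0 to 3 with single samples left out. At SCC against dysplasia spike-in alignment gave 30 lower.

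Of epithelia against fibroblasts, the normal stage gave 20 higher and 1 lower with spike-in alignment, and 5 to 7 and 15 to 20 with single samples left out. Dysplasia gave 46 and 0 with spike-in alignment, 3 lower with quantile normalisation, 11 lower without the 3 fibroblast samples, and 4 to 15 and 3 to 8 with single samples left out. SCC gave 6 higher with quantile normalisation, 1 lower with spike-in alignment, 0 higher and 14 lower without the 3 fibroblast samples, and 0 to 1 and 6 to 9 with single samples left out.

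Spike-in alignment also raised the share of higher calls among all called probe sets from 48.1% to 69.6% at dysplasia in epithelia. For most alternatives the share of all probe sets called is not given, so their counts of members have no background beside them. The replicate block in the fits of all stages changed no other count of members by more than 1.5 times. Of 569 alternative values of 30 single-gene results, 419 kept their call, 150 lost it and 0 changed sign. The cause of these shifts was not tested. No background value is given, so how far dim members such as Orc1 and Tyms lay above background is unknown.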
